A study of Mus musculus with 14 samples.

Results

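Creb3l1, Kat6b and Timp1 are 3 of the 21757 protein-coding genes that were examined, and each lay nearest to a very strong pSMAD1/5/9 peak that appeared in the peak list of BMP6-stimulated cells and had no counterpart in the list of control cells. They were chosen by exactly these values, the signal of the pSMAD1/5/9 peak after BMP6 and the absence of a control peak, so both are given below as a description without a test. All peaks of the 6 peak lists that overlapped the canonical transcript of a gene, extended by 20 kb on both sides, were assigned to it. For the 3 genes together this gave 9 pSMAD1/5/9 peaks of BMP6-stimulated cells out of 7339 and 1 of control cells out of 949. It also gave 14 of 12860 and 13 of 8577 SMAD4 peaks and 37 of 78050 and 27 of 67790 H3K27ac peaks, in BMP6-stimulated and control cells respectively.

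The cells were primary muscle stem cells (MuSCs) from skeletal muscle of female mice aged 9 weeks with the genotype C57BL/6N(Tg(Pax7-EGFP)Tajb), in which a Pax7 reporter gene labels the cells with green fluorescent protein. They were sorted on this reporter after a first culture step and cultured further, so the data describe cultured cells. Both groups were starved of serum for 6 h with 200 ng/mL soluble BMP receptor BMPR1A-Fc, which binds BMPs of the medium, followed by 1 h with BMP6 at 100 ng/mL or with its vehicle, 0.1% BSA in 4 mM HCl. CUT&Tag, in which an antibody directs a transposase to the chromatin it binds, was performed with 2 biological replicates per antibody and treatment, and each of the 6 lists is the consensus of 2 replicates. Read counts were not used, and the sequencing depth under a peak is not known.

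BMPs bind to receptor kinases that phosphorylate SMAD1, SMAD5 and SMAD9. The phosphorylated proteins (pSMAD1/5/9) join SMAD4, the partner that they share with the TGF-β pathway, enter the nucleus and bind regulatory DNA. H3K27ac is a histone mark of active promoters and enhancers. Creb3l1 encodes OASIS, a transcription factor that is held in the endoplasmic reticulum membrane and released by the site-1 and site-2 proteases, and it is known for its role in collagen secretion by bone-forming cells. Kat6b encodes a histone acetyltransferase of the MYST family, which works in a complex with BRPF scaffold proteins, ING5 and MEAF6. Timp1 encodes a secreted inhibitor of matrix metalloproteinases, the enzymes that cut extracellular matrix.

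The DNA under the strongest new peaks is shown first, because the binding described below turns on these sites. A new peak is a pSMAD1/5/9 peak of BMP6-stimulated cells that overlaps no pSMAD1/5/9 peak of control cells by a single base. Sequences are the plus strand of GRCm39, 300 bases each. Windows were centred on the summit, which IDR derives from both replicates and which need not be the maximum of either, or moved just far enough to hold no base of an untranslated region of any annotated transcript. At Timp1 this includes a minor transcript that starts before the canonical one. The 3 strongest new sites are chr2:91839083-91839382 in intron 1 of Creb3l1, chr14:21550621-21550920 directly upstream of the canonical start of Kat6b, and chrX:20736016-20736315 shortly before the canonical start of Timp1.
Creb3l1 strongest new site: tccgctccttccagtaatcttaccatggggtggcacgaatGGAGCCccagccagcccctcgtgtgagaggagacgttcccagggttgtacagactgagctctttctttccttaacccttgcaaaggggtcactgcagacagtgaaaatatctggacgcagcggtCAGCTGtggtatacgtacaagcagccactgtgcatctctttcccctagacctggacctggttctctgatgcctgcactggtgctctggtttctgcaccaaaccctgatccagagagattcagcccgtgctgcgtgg
Kat6b strongest new site: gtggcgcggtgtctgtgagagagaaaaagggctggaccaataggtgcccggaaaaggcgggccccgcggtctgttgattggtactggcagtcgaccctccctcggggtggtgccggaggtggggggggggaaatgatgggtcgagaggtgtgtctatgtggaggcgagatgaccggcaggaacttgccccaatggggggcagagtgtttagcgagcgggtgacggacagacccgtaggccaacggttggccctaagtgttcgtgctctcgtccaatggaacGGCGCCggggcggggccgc
Timp1 strongest new site: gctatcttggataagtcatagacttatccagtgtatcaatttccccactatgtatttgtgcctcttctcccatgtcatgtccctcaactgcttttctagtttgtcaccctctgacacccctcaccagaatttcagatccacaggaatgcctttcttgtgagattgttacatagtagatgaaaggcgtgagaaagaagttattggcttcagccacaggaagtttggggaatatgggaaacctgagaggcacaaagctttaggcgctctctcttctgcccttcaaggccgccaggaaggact
For comparison, a further site of each gene is given: the Creb3l1 site that was bound by pSMAD1/5/9 in both conditions (chr2:91843279-91843578), the strongest SMAD4 site near Kat6b without a pSMAD1/5/9 peak (chr14:21733935-21734234), and the Timp1 site next to the strongest one, where SMAD4 was listed in control cells (chrX:20735496-20735795).
Creb3l1 shared site: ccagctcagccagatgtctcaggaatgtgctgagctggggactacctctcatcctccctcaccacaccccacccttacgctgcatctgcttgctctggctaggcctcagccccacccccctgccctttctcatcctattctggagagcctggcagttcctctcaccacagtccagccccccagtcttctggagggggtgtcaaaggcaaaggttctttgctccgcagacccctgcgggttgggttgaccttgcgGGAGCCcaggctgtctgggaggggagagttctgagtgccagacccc
Kat6b SMAD4 site: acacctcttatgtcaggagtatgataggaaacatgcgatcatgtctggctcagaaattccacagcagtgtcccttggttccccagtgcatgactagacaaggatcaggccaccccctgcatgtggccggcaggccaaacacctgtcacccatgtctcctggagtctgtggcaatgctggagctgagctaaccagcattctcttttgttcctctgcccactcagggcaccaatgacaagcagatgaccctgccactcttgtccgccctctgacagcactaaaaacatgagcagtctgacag
Timp1 second site: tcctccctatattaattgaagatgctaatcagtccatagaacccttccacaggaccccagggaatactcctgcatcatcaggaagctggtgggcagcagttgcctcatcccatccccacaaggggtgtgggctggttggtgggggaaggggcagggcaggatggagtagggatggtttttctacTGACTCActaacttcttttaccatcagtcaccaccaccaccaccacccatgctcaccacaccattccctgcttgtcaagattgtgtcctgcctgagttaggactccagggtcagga
Capitals mark every match to any of the motifs that were searched on both strands: the GC-rich SMAD box GGAGCC or GGCGCC, the same box followed after 5 bases by GTCT, the palindrome GTCTAGAC that SMAD4 can bind, the E-box CAGCTG that MYOD binds, and the AP-1 motif TGACTCA or TGAGTCA. The box with GTCT contains the GC-rich box, and the other motifs do not contain each other.

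Within the 200 bp centred on the summit, the Kat6b site held 1 GC-rich SMAD box, a GGCGCC close to the transcription start, and no other motif. The Creb3l1 site held 1 CAGCTG, while its GGAGCC lay outside these 200 bp. The Timp1 site held none of the motifs in the 200 bp or in the printed bases. Of all 6500 new peaks, 30.3% held a GC-rich SMAD box within the same width (95% Wilson interval 29.2 to 31.4), 31% a CAGCTG and 15.5% an AP-1 motif, whereas 0.277% held the box with GTCT and 0.523% the palindrome. The palindrome and the box with GTCT were not found at any of the 9 pSMAD1/5/9 peaks of the 3 genes. GC content of the 200 bp was 54% at Creb3l1, 64.5% at Kat6b and 55% at Timp1, against a median of 56% and quartiles of 51% and 62.5% over the new peaks.

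Creb3l1 (ENSMUSG00000027230.11) spans 91812673 to 91854869 of chromosome 2, on the minus strand, with 12 exons. Its strongest new peak stretched over 3060 bp of intron 1, from 91837171 to 91840230, with the summit at 91839233, 15636 bp downstream of the TSS. The consensus signal, a score without a fixed unit, was 130287, made up of 71226 in one replicate column and 59061 in the other. By this signal it ranked 10 of 7339 pSMAD1/5/9 peaks and 2 of the new ones, with ranks of 25 and 7 in the replicate columns taken separately. It was the strongest of 485 peaks on chromosome 2. The start of the lncRNA Gm31473, which is transcribed in the opposite direction, lay inside the peak, 1107 bp from the summit and therefore closer to it than the start of Creb3l1.

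Kat6b (ENSMUSG00000021767.22) spans 21550921 to 21722546 of chromosome 14, on the plus strand, with 17 exons. The peak at its promoter reached from 21550114 to 21551520 (1407 bp), with the summit at 21550831, 90 bp upstream of the canonical TSS. The span of all basic GENCODE transcripts of Kat6b begins further upstream, at 21549265, and so contains this peak. The signal was 108668, with 66443 and 42224 in the replicate columns. This placed the peak at rank 26 of all pSMAD1/5/9 peaks, rank 6 of the new ones and rank 1 of 307 on chromosome 14. The replicate columns gave ranks of 31 and 44. The start of the antisense lncRNA Gm62641 also lay in the peak, 337 bp from its summit. The closest pSMAD1/5/9 peak of control cells was 570634 bp away.

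Timp1 (ENSMUSG00000001131.13) spans 20736351 to 20740972 of chromosome X, on the plus strand, with 6 exons. It is contained in an intron of Syn1, a neuronal gene on the other strand. Its strongest new peak was compact, with 750 bp from 20735881 to 20736630 and the summit at 20736285, 66 bp upstream of the TSS. The signal of 109218 consisted of 68011 and 41207 in the replicate columns. The rank was 23 of all peaks, 4 of the new ones and 1 of 368 on chromosome X, with 27 and 49 in the replicate columns. No pSMAD1/5/9 peak of control cells was listed within 2706921 bp. The whole control list holds 949 peaks. Such distances were not summarised over all new peaks, so those of Timp1 and Kat6b have no background.

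**Figure D1:**
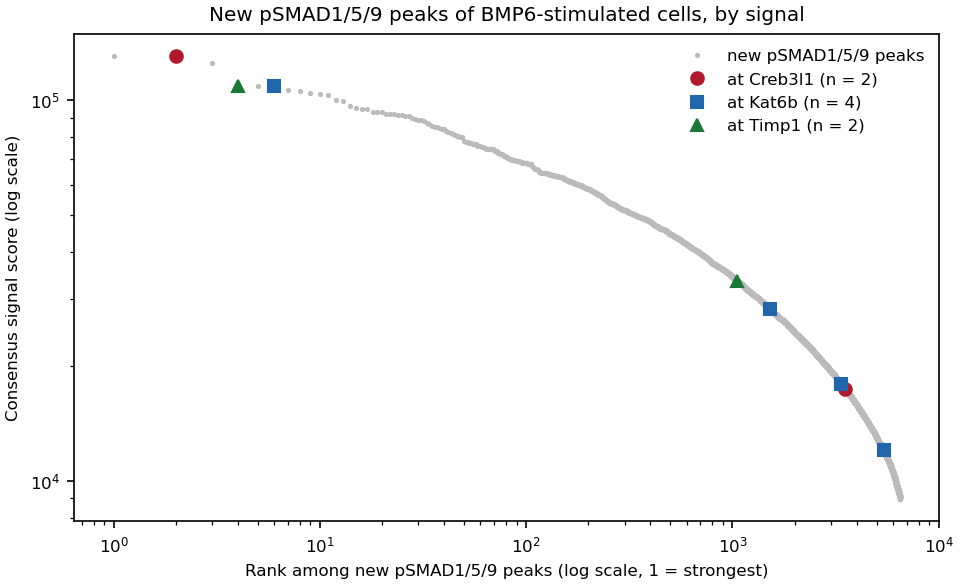
Consensus signal score of the 6500 new pSMAD1/5/9 peaks against their rank, both on log scales; grey points are all new peaks and coloured symbols are those within 20 kb of the 3 genes. The strongest new peak of each gene stands at rank 2 (Creb3l1), 4 (Timp1) or 6 (Kat6b), and the remaining new peaks of the 3 genes lie at rank 1052 or beyond.

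In both replicate columns all 3 peaks were among the 49 highest of 7339. The order among them was not firm: Timp1 and Kat6b differed by 3 ranks in the consensus and exchanged places between the replicate columns, where Timp1 stood 4 ranks before Kat6b in one and 5 behind it in the other. Signal in the first column was 1.206 times that in the second at Creb3l1, 1.57 times at Kat6b and 1.65 times at Timp1, against a median of 1.29 and quartiles of 0.967 and 1.69 over the list, so all 3 lay within the quartiles. The peaks also differed in width. The Creb3l1 peak was the second widest of the list, the Kat6b peak ranked 168 by width and the Timp1 peak 1957, where the median width was 582 bp. Divided by width, the signal ranked 4 at Timp1, 213 at Kat6b and 2526 at Creb3l1, so the Creb3l1 site was among the strongest by the deposited signal but not after division by width.

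Being new was not rare in itself, as 88.6% of all pSMAD1/5/9 peaks after BMP6 had no control counterpart. A new peak lay within 20 kb of 27.3% of all genes and of 36.5% of the genes that had an H3K27ac peak within 20 kb after BMP6. A control pSMAD1/5/9 peak lay within 20 kb of 5.97% of genes. Of the 3 genes only Creb3l1 had one. It spanned 91843041 to 91844000 in intron 1, 2811 bp from the new peak, and ranked 95 of 949 with a signal of 59419 (31334 and 28085 in the replicate columns). In BMP6-stimulated cells a pSMAD1/5/9 peak overlapped it, from 91843129 to 91844100, with rank 217 of 7339 and a signal of 70604 (48517 and 22087). The summits were at 91843360 and 91843429. At this older site the replicate columns of the 2 conditions overlapped, from 22087 to 48517 after BMP6 and from 28085 to 31334 in control cells. Scores of separate lists are not on a shared scale, and the values are therefore set side by side only.

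The other pSMAD1/5/9 peaks of the 3 genes were much weaker. At Creb3l1 another peak, new and also in intron 1, lay 7329 bp from the TSS, with rank 4241. It was close to the limit of reproducibility, with a −log10 of the irreproducible discovery rate (IDR) of 1.32, where the lists end at 5. At Kat6b the list held 3 more peaks, all new. The peak in the last exon, 168948 bp downstream of the TSS, ranked 4079. A pair of peaks lay behind the gene, in introns of the neighbouring Dusp29, which encodes a phosphatase of muscle, at ranks 2062 and 6218. At Timp1 the second peak, also new, ended 9 bases before the strongest one. It spanned 20735401 to 20735871, had its summit 705 bp before the TSS and ranked 1521. Its replicate columns were far apart, with ranks of 914 and 3855. Just outside the 20 kb, a BMP6 pSMAD1/5/9 peak of rank 3597 lay 1471 bp beyond the Timp1 window, near the start of Araf. The next ones were 7845 bp beyond the Creb3l1 window, with rank 1747, and 51552 bp beyond that of Kat6b, with rank 1607.

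**Figure D2:**
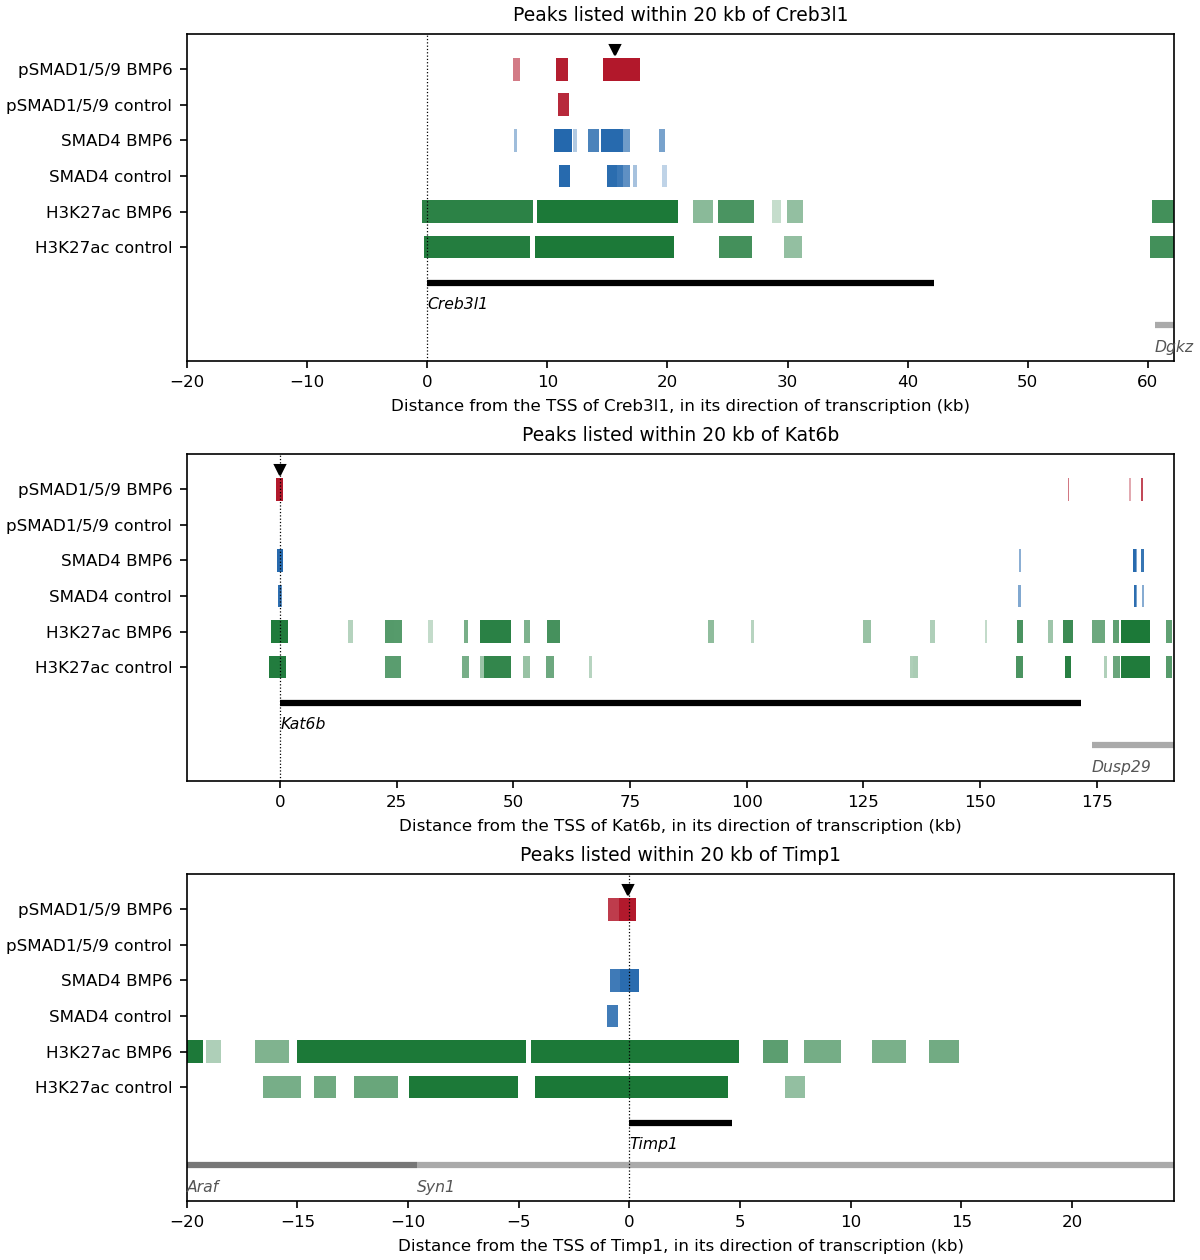
Peaks of the 6 lists within 20 kb of Creb3l1, Kat6b and Timp1, by distance from the TSS in kb along the direction of transcription; bar length is peak width, darker bars have a higher percentile by signal in their list, the triangle marks the summit of the strongest new pSMAD1/5/9 peak, and black and grey lines below are the gene and its protein-coding neighbours. Control cells show a single pSMAD1/5/9 peak, in Creb3l1, whereas SMAD4 and H3K27ac bars are present in both conditions at every gene.

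SMAD4 was compared next, since it was not used to choose the genes. After BMP6 each of the 3 strongest new sites was overlapped by a SMAD4 peak, as were 70.7% of all new peaks (95% Wilson interval 69.6 to 71.8). At Creb3l1 the SMAD4 peak from 91838605 to 91840386 ranked 380 of 12860 with a signal of 31256 and 15754 in the replicate columns, and its summit was 26 bp from that of pSMAD1/5/9. At Kat6b the SMAD4 peak ranked 468, with 30302 and 13119 in the columns and summits 153 bp apart. At Timp1 it ranked 640, with 27881 and 11022 and summits 81 bp apart. The median distance between overlapping summits was 77 bp over all new peaks, with quartiles of 31 and 154 bp, so Creb3l1 lay below the lower quartile and Kat6b just under the upper one. A small SMAD4 peak of rank 6060 also lay inside the wide Creb3l1 site, with its summit 937 bp from that of pSMAD1/5/9, and the SMAD4 peak upstream of Timp1, of rank 2254, reached into the strongest site by 33 bp.

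In control cells SMAD4 was already listed at 2 of the 3 strongest new sites. The Creb3l1 site was covered by 4 SMAD4 peaks of control cells, at ranks 492, 1339, 3203 and 6906 of 8577. The strongest of these had its summit 384 bp from the pSMAD1/5/9 summit, at 91839617. The Kat6b promoter carried 2 control peaks, at ranks 691 and 3498, the stronger with its summit 83 bp from that of pSMAD1/5/9. At Timp1 no SMAD4 peak of control cells overlapped the strongest site. The only control peak of that gene, from 20735353 to 20735820, ranked 1645 and lay on the weaker second site, with its summit 14 bp from the pSMAD1/5/9 summit there. A control SMAD4 peak overlapped 53.3% of all new peaks, so its presence and its absence were both common.

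The order of a peak in its list was expressed as percent of the list, where small values are strong. SMAD4 at the Creb3l1 site stood at 2.95% after BMP6 (2.46% and 4.25% in the replicate columns) and its strongest control peak at 5.74% (7.88% and 4.12%), so that the columns overlapped between conditions. At the Kat6b promoter the values were 3.64% (2.73% and 6.50%) after BMP6 and 8.06% (7.54% and 9.97%) in control cells. These percentages did not overlap, but the ranks behind them did, with 351 and 836 in the columns after BMP6 and 647 and 855 in control cells. At Timp1 the site stood at 4.98% (3.51% and 9.08%) after BMP6 and was not listed in control cells. The list of BMP6-stimulated cells is longer than that of control cells, so that a peak of unchanged order would move to a smaller percent, and with 2 replicates per condition no test was made. At the site of Creb3l1 shared by both conditions SMAD4 had its highest rank of the gene in each list, 214 after BMP6 and 263 in control cells. This is 1.66% (1.79% and 1.60%) and 3.07% (2.19% and 6.49%) of the list. Here too the percentages did not overlap, but the column ranks did, with 230 and 206 after BMP6 and 188 and 557 in control cells.

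The number of SMAD4 peaks in the whole windows depended on the threshold. Creb3l1 had 7 after BMP6 and 6 in control cells, Kat6b had 5 and 6, and Timp1 had 2 and 1, together 14 and 13. At an IDR of at most 0.01 these were 10 and 6, with 4 and 2 at Kat6b and 2 and 0 at Timp1, and with 50 kb on both sides they were 22 and 15. A SMAD4 peak lay within 20 kb of 39.3% of all genes after BMP6 and of 30.8% in control cells. Of the 7 SMAD4 peaks at Creb3l1 after BMP6, 4 overlapped a control SMAD4 peak, against 45.5% of the whole list, and all 7 lay in intron 1, between 7325 and 19707 bp from the TSS. At Kat6b all 5 overlapped a control peak. The second strong SMAD4 site of that window lay 183164 bp from the Kat6b TSS in an intron of Dusp29. It ranked 504 after BMP6 and 625 in control cells, had no pSMAD1/5/9 peak in either condition, and held none of the motifs in its printed bases. Its position among SMAD4 peaks was close to that of the Kat6b promoter, although pSMAD1/5/9 was listed strongly at the promoter alone. The stretch next to it showed a different picture, with pSMAD1/5/9 at rank 2062 overlapping SMAD4 at rank 1731 after BMP6 and rank 5273 in control cells.

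**Figure D3:**
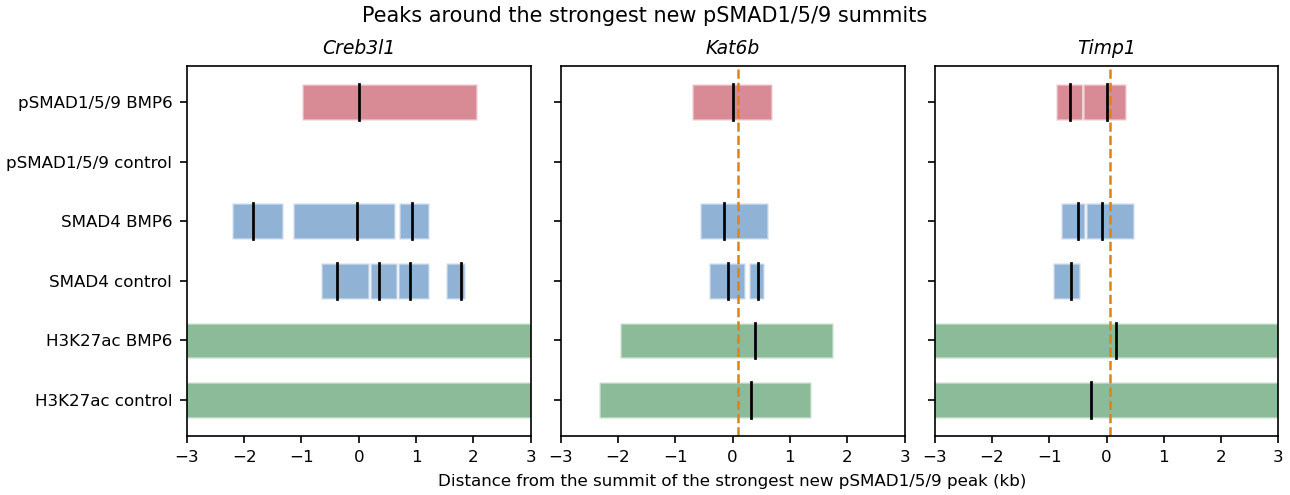
Peaks of the 6 lists within 3 kb of the summit of the strongest new pSMAD1/5/9 peak at each gene, by distance in kb along the direction of transcription; bars are peaks, black ticks their summits and dashed orange lines the TSS of the gene. Both Kat6b and Timp1 have the summit within 100 bp of the TSS, and the strongest Timp1 site is the only 1 of the 3 without a SMAD4 peak of control cells.

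H3K27ac was listed at all 3 strongest new sites in both conditions, as at 98% of new peaks after BMP6 and 97.2% in control cells. An H3K27ac peak lay within 20 kb of 74.8% of all genes after BMP6 and of 73.4% in control cells. In Creb3l1 a single acetylated block of 11760 bp covered the new site and the shared site together. It ranked 352 of 78050 after BMP6, and the block in control cells, of 11600 bp, ranked 268 of 67790. This corresponds to 0.451% of the list (0.382% and 0.823% in the replicate columns) against 0.395% (0.325% and 1.11%), with overlapping columns. The summit of both blocks lay by the shared site and not by the new one, 4185 bp from the new pSMAD1/5/9 summit after BMP6 and 4331 bp in control cells. The block at the Creb3l1 TSS itself was lower, at rank 7657 after BMP6 and 3457 in control cells. Its replicate columns ranked 5295 and 10178 after BMP6 and 10286 and 990 in control cells. Those of control cells enclosed those after BMP6, so the ranks did not separate the conditions.

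At the Timp1 promoter the H3K27ac peak was 9380 bp wide after BMP6 and 8700 bp in control cells, and ranked 300 and 159. In percent of the list it stood at 0.384% (0.0564% and 2.38% in the replicate columns) after BMP6 and at 0.235% (0.547% and 0.190%) in control cells. The replicate columns of BMP6-stimulated cells enclosed those of control cells, so the ranks did not separate the conditions. A block upstream, over the ends of Araf and Syn1, ranked 247 and 223. It measured 10360 bp after BMP6, and 4 separate peaks of control cells overlapped it.

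At the Kat6b promoter H3K27ac ranked 2153 after BMP6 and 2797 in control cells, which is 2.76% (1.25% and 5.15%) and 4.13% (4.18% and 4.59%) of the list, again with overlapping columns. Its strongest H3K27ac peak was not at the promoter but in Dusp29. New pSMAD1/5/9 peaks of ranks 2062 and 6218 and the SMAD4 site without pSMAD1/5/9 all lay inside this H3K27ac peak. That peak stood at 0.497% of the list (0.966% and 0.589% in the replicate columns) after BMP6 and at 2.45% (3.76% and 1.69%) in control cells, and here the columns did not overlap. Along the whole window Kat6b had 21 H3K27ac peaks after BMP6 and 16 in control cells, of which 13 of each overlapped a peak of the other condition. Over the whole lists 72% of H3K27ac peaks after BMP6 and 86.8% of those in control cells did so. Creb3l1 had 7 and 5, and Timp1 had 9 and 6. A strong control peak, of rank 1096 near the start of Araf, missed the Timp1 window by 51 bp while its counterpart after BMP6, of rank 938, was counted, and with 50 kb on both sides Timp1 had 15 in each condition. The lists differ in length in the same direction, with 78050 and 67790 peaks.

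**Figure D4:**
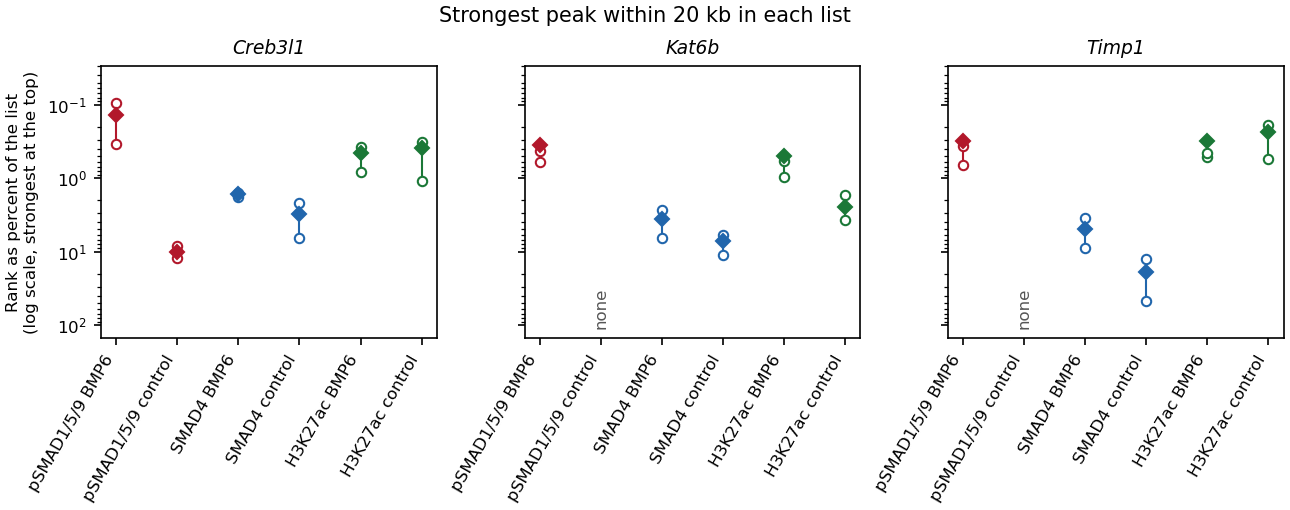
Strongest peak within 20 kb of each gene in each list, given as its rank in percent of the list on a log axis with the strongest at the top; diamonds are the consensus and open circles the 2 replicate columns, joined by a line. pSMAD1/5/9 after BMP6 stands within the strongest 1% at all 3 genes in both columns, and control cells have a pSMAD1/5/9 peak at Creb3l1 alone. In percent the SMAD4 columns of the 2 conditions overlap at Kat6b alone, although by rank, before division by lists of unequal length, they overlap at all 3 genes. For H3K27ac they overlap at Creb3l1 and Timp1. The strongest peak is a different site in each condition for SMAD4 at Kat6b and Timp1 and for H3K27ac at Timp1. There the columns of the 2 conditions do not describe the same site.

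The 3 genes were set beside the other strongest new peaks. The 10 strongest were nearest to Tas1r2, Creb3l1, Smad7, Timp1, Atoh8, Kat6b, Hacl1, Bmal1, Mok and Tex44. Smad7, a feedback inhibitor of the pathway, and Atoh8, a transcription factor gene, are known BMP targets. A TSS of a protein-coding gene within 2 kb was present for 3 of the 10 peaks, at Kat6b, Smad7 and Timp1, and an intron held those of Atoh8 and Creb3l1, while the rest were intergenic. Tex44, the last of the 10, had a signal of 104077 (rank 34), and the peak after it, nearest to Ttll11, had 102962 (rank 37). All 10 were overlapped by SMAD4 after BMP6 and by H3K27ac in both conditions. A SMAD4 peak of control cells overlapped 9 of the 10, and the exception was Timp1, which alone of them lies on chromosome X. Over all new peaks this share was 53.3%, and on autosomes only it was 55.1%. The share on chromosome X was not computed separately. As the autosomal share is the higher of these, the share over the sex chromosomes lies below 53.3%. Among these 10 the highest overlapping SMAD4 rank after BMP6 was 7, at Smad7, the median 134.5 and the lowest rank 640, at Timp1. With ranks of 380, 468 and 640, Creb3l1, Kat6b and Timp1 thus had the 3 weakest SMAD4 peaks of the 10. By pSMAD1/5/9 signal they ranked 2, 6 and 4 of the new peaks. The peak nearest to Ttll11, just below the cut at 10, had SMAD4 at rank 1213, weaker than at any of the 3 genes. The order therefore depends on this cut. It was seen in peaks that were selected on pSMAD1/5/9, and it was not tested.

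Relatives and partners of the 3 genes were examined in the same way. Apart from the 3 genes themselves, a new pSMAD1/5/9 peak lay within 20 kb of 5 of 8 genes of the OASIS family and its proteases, of 7 of 9 MYST acetyltransferases and KAT6 complex genes, of 2 of 3 TIMP genes and of 5 of 13 metalloproteinase genes. The corresponding share was 27.3% over all genes and 36.5% over the genes with an H3K27ac peak within 20 kb after BMP6. Genes with long transcripts have longer windows, and this was not adjusted for. An H3K27ac peak after BMP6 was present at 8 of 8, 9 of 9, 3 of 3 and 10 of 13 of these genes, against 74.8% of all genes.

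In the OASIS group the new peaks of the relatives were weak, at ranks from 3593 (Creb3l4) to 6453 (Atf6) of 7339. Creb3l2, the closest relative of Creb3l1, had a single one at rank 6420. Atf6, an endoplasmic reticulum stress sensor that is cut by the same proteases, had 3 pSMAD1/5/9 peaks, of which the strongest stood at the percentile of 98.8 by signal and was shared with control cells. Of the proteases, Mbtps1 had a new peak at rank 6245 and Mbtps2 had none. In the acetyltransferase group Kat6a, the paralogue of Kat6b, came next after Kat6b, with 2 new peaks, the stronger at rank 355. Brd1, a scaffold of the complex, had a new peak at rank 1399. At Brpf1, another scaffold, the strongest pSMAD1/5/9 peak was at percentile 98.7 and was again shared with control cells, while its new peak ranked 4983. The new peaks of Kat7, Kat8, Brpf3 and Meaf6 ranked from 4145 to 6464, and Kat5 and Ing5 had none.

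Among the TIMP genes Timp2 had 5 new peaks, the strongest at rank 1643, and Timp4 had 2, the strongest at rank 3051. Timp3 had no pSMAD1/5/9 peak, although 3 SMAD4 peaks after BMP6 and 2 in control cells were listed there. No TIMP gene had a pSMAD1/5/9 peak in control cells, where only 5.97% of all genes had one within 20 kb. Of the enzymes, Adamts1 had a new peak at rank 749, Adam10 at rank 2905, Adamts4 at rank 3672, Mmp15 at rank 4563 and Mmp19 at rank 6781. Mmp2 and Mmp14, gelatinase A and its membrane-bound activator, had H3K27ac but no pSMAD1/5/9 peak, and Mmp3, Mmp9 and Mmp13 had no peak in any list. In none of the groups did a relative have a new peak as strong as that of Creb3l1, Kat6b or Timp1, which is how the 3 genes were selected.

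**Figure D5:**
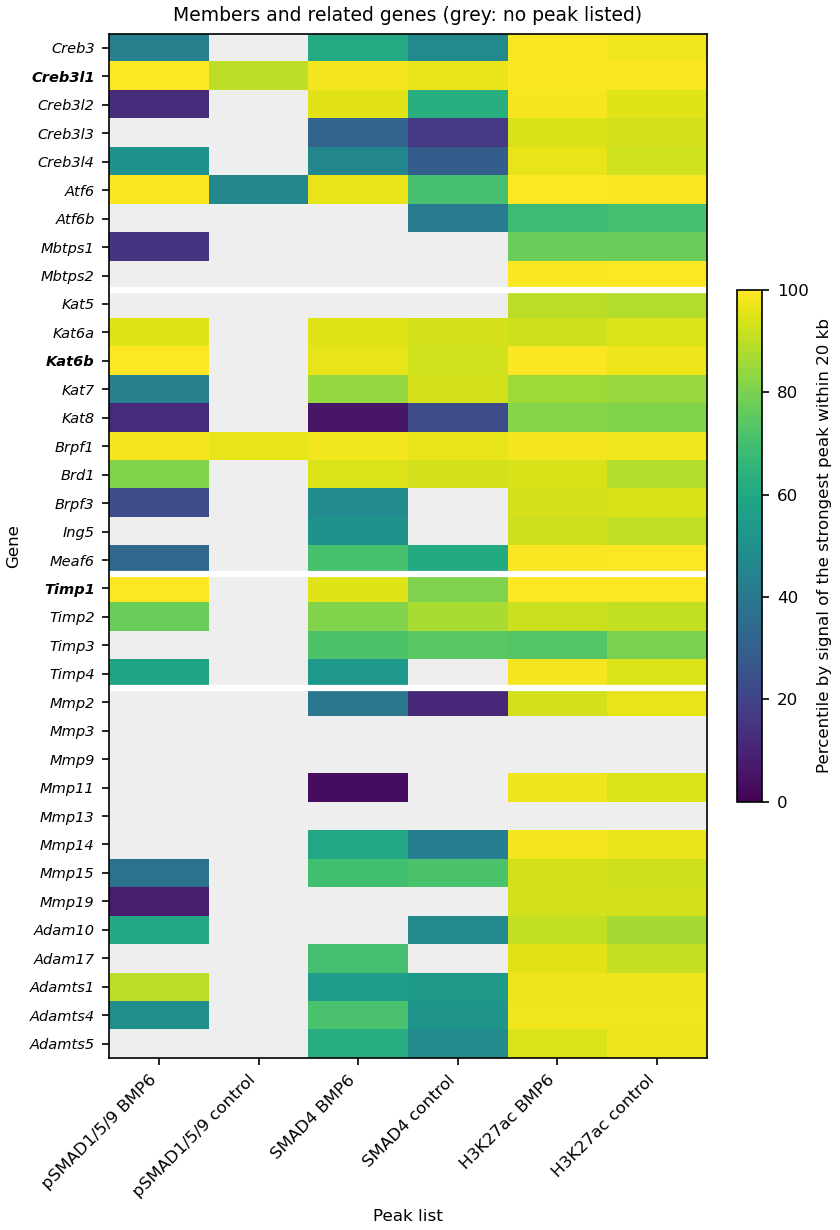
Percentile by signal of the strongest peak within 20 kb of each gene in each of the 6 lists, for the 3 genes (bold) and their fixed lists of relatives and partners; yellow is the strongest, grey means that no peak was listed. In the column of pSMAD1/5/9 in control cells only Creb3l1, Atf6 and Brpf1 have a peak, and Mmp3, Mmp9 and Mmp13 are grey throughout.

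The genes most like each of the 3 were found by the mean absolute difference in percentile of the strongest peak, over the 6 lists. Closest to Creb3l1 were Zswim4 (0.675 percentile points), Bhlhe40 (0.732) and Chd4 (0.812), which all had a pSMAD1/5/9 peak in control cells at a percentile between 89.8 and 91.7. Closest to Kat6b were Sf3b3 (1.01), Akap17a (1.03) and Asmt (1.03), of which Akap17a and Asmt had the same values in every list. Closest to Timp1 were Dohh (1.73), Snai1 (1.76) and Wwp2 (1.90), and none of these had a control pSMAD1/5/9 peak. Their control SMAD4 percentile lay between 75.3 and 83.1, like the 80.8 of Timp1. The measure uses the same lists by which the 3 genes were chosen, and it describes the likeness of peaks only.

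Marker genes of cell types were examined for H3K27ac within 2 kb of their TSS. The share of all genes with a peak that close was not computed, so the counts are a description without a background. A peak after BMP6 was listed at 7 of 8 markers of muscle stem cells, with Myf5 at rank 14 and Pax7 at rank 17 of 78050, and Chrdl2 was the exception. Endothelial markers had peaks at 0 of 4 genes, immune markers at 1 of 5, glial markers at 1 of 3 and fibro-adipogenic markers at 2 of 4, of which Dpt was the strongest at rank 2599. The counts in control cells were equal for every group of markers.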

How the data were processed

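CUT&Tag was made with antibodies against pSMAD1/5/9, SMAD4 and H3K27ac. Of 14 samples, 12 entered the 6 consensus lists, and 2 samples without primary antibody were not analysed here. Groups follow antibody and treatment in the labels. According to the methods and processing notes, the authors brought the libraries of an antibody to the same number of reads by subsampling and mapped them with Bowtie2 2.5.4 on GRCm39. Reads were filtered with SAMtools 1.21 and bedtools 2.31.1, JAMM called peaks per replicate, and IDR, ranked by signal, retained those up to a threshold of 0.05. JAMM's filtered peaks were used for the SMADs and all its peaks for H3K27ac, so the number of peaks also reflects this choice. The deposited signal is a score without a fixed range, given for the consensus and for each replicate in a column that carries no replicate number. The deposited IDR is given as −log10, and the summit as an offset, an IDR-derived position. Read counts were not used and the depth is unknown, the number of replicates limits the precision, and no test was made.

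Coordinates are 1-based. Genes were the GENCODE canonical transcripts of 21757 protein-coding genes on GRCm39. Peaks overlapped with at least 1 bp, windows were 20 kb, and a peak was placed at a TSS (within 2 kb), else in an exon, intron or intergenic. Ranks are by signal within a list. Shares have Wilson 95% intervals, which cover counting error only. Motifs were counted in 200 bp on the summit. Python 3.11.15, numpy 2.4.6, pandas 2.3.3, scipy 1.17.1 and matplotlib 3.10.9 were used, and overlaps and motif counts were tested on simulated data.

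The genes, the lists of relatives, the motifs and the alternatives were chosen with earlier results of these data known. Named genes were the 3 genes, protein-coding neighbours, the listed relatives, the genes nearest to the 10 strongest new peaks, and the 3 genes most like each of the 3. Genes that share the strongest new peak were left out of the last group. Alternatives covered the IDR threshold, the window, the transcripts, the ranking, the overlap, autosomes, the distance to a control peak and the motif window.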

Additional observations from a re-analysis of the deposited data

How the results depend on the processing

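Of 142 recomputed values for 38 results, 89 stayed within the limit set for them and 53 moved. These were single counts, shares and ranks, so a change of order between conditions was not scored. The SMAD4 counts at Kat6b did change order. They were 5 after BMP6 and 6 in control cells, but 4 and 2 at an IDR threshold of 0.01. The limit was a factor of 1.5 for counts, the 95% interval for shares and 1 SD of the replicate columns for ranks. Of the 60 recomputed counts per gene and list other than pSMAD1/5/9 after BMP6, 14 moved. No paired analysis was possible because each list is a consensus and its replicate columns carry no number.

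At an IDR threshold of 0.01 the 3 genes together had 10 SMAD4 peaks after BMP6 and 6 in control cells, 17% of genes had a new peak, and 11 relatives had one instead of 19. With 5 kb on both sides Kat6b had 2 pSMAD1/5/9 peaks after BMP6 and 19.1% of genes had a new peak. With 50 kb Creb3l1 had 7, the 3 genes together had 14 pSMAD1/5/9, 22 SMAD4 and 62 H3K27ac peaks after BMP6 and 2 pSMAD1/5/9, 15 SMAD4 and 55 H3K27ac peaks in control cells, and 38.8% of genes had a new peak. The span of all basic transcripts moved none of the results.

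Ranked by a single replicate column, the strongest new peak stood between 7 and 25 at Creb3l1, 31 and 44 at Kat6b and 27 and 49 at Timp1. Divided by width, the signal ranked 2526, 213 and 4, and the Creb3l1 peak is the second widest of the list. Ranking by IDR first, or among peaks at an IDR of at most 0.01, left the ranks at 10, 26 and 23.

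The share of new peaks overlapping another list was lower when 50% of both peaks had to overlap: 54.7% for SMAD4 after BMP6, 40.4% for SMAD4 in control cells, 2.89% for H3K27ac after BMP6 and 4.82% in control cells. At an IDR of 0.01 in all lists these shares were 77.1%, 54.8%, 99.8% and 99.4%, and on autosomes only 73%, 55.1%, 99.4% and 98.7%. The cause was not tested. In windows of 100 bp the GC-rich SMAD box was found in 17.1% of new peaks, GTCTAGAC in 0.369%, CAGCTG in 17.9% and the AP-1 motif in 9.03%. In windows of 400 bp these were 47.3%, 0.846%, 45.3% and 22.8%, and the box with GTCT 0.462%, as more bases were searched.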
